A study of Mus musculus with 4 samples.

Results

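Haematopoietic progenitor transcription factors were examined in CD24+ splenic emergency progenitors (EPs), the CD11c+CD117+ cells that accumulate in the mouse spleen under excess Flt3L. The members were named as a fixed list of 10 genes: *Spi1* (PU.1), *Zbtb46*, *Ikzf1*, *Runx1*, *Gfi1b*, *Myb*, *Myc*, *Mycl*, *Bcl6* and *Cbfb*. All 10 were found among the 40213 gene symbols of the count tables, and 9 of them were among the 12393 genes abundant enough to be tested. Bulk RNA-seq was performed on 4 libraries. The 2 WT libraries came from TopBP1 fl/fl littermates and the other 2 are labelled TopBP1cKO, that is, TopBP1 fl/fl mice that also carried CD11c-cre. Mice of both genotypes received intraperitoneal Flt3L-Ig, 10 μg on day 0 and again on day 3, and the cells were sorted on day 9. By the study's methods the mice were young adults. The CD11c promoter drives the Cre, so recombination is limited to cells in which that promoter has been active. Whether a library is 1 mouse or a pool of mice is not stated, so P values measure the spread between these libraries, which may be technical.

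Libraries held between 14561583 and 15193831 counts. Levels below are CPM, counts scaled to a common library size after TMM normalization, and fold changes are libraries labelled TopBP1cKO against WT, tested by the edgeR quasi-likelihood test with Benjamini–Hochberg adjustment (FDR) over all genes tested. *Topbp1* itself was at 77.9 and 75.6 CPM in the WT libraries, 50.7 CPM in labelled TopBP1cKO replicate 1 and 82.7 CPM in labelled TopBP1cKO replicate 2 (log2 fold change −0.20 ± 0.21, SE, n = 2 per group, FDR = 0.774 by edgeR). These are sums over the whole gene, so reads outside the deleted part are included. The library labelled TopBP1cKO replicate 2 was therefore not reduced in *Topbp1*, and it also stood apart in cell division genes. Some results below that rest on it are also given without it, and others are not. All 4 genes for cDC1s fixed as markers were abundant in every library. They summed to 2001 and 2092 CPM in WT and 1785 and 1905 CPM in the labelled TopBP1cKO libraries. Of these, *Xcr1*, *Clec9a* and *Cadm1* were lower in both labelled TopBP1cKO libraries without overlap, where 20.8% of all genes tested were. *Cadm1* changed most (log2 fold change −0.51, FDR = 0.347 by edgeR), and *Tlr3* overlapped (log2 fold change 0.15). The 4 cDC2 markers summed to 45.6 and 59.6 CPM in WT and 78.4 and 103 CPM in the labelled TopBP1cKO libraries. The sort markers *Kit*, *Itgax* and *Cd24a* were present in every library, with at least 5916 counts each.

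The members act at successive points of blood cell development. PU.1 is an ETS-family factor that specifies myeloid cells and DCs, and with IRF4 or IRF8 it binds composite DNA elements. RUNX1 needs its non-DNA-binding partner CBFβ to bind stably, IKAROS and GFI1B recruit repressors, MYB keeps progenitors immature, and MYC and L-MYC both pair with MAX to bind E-box sequences. ZBTB46 marks committed cDCs and their precursors, and BCL6 is a repressor used by cDC1s, germinal centre B cells and follicular helper T cells.

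No member passed the test between the genotypes. By the edgeR test 0 of the 9 members tested passed FDR < 0.05, where 0.105% of all genes tested did, and 0 had an unadjusted P below 0.05, where 10.7% of all genes did. limma-voom also called 0 members, as did the DESeq2 Wald test and the edgeR likelihood ratio test, and in these last tests *Myc* was the only member with an unadjusted P below 0.05 (0.0231 and 0.0322). The median log2 fold change of the 9 members was 0.05, against 0.01 over all genes tested, and the median size of the change without its sign was 0.17 for both. Labelled TopBP1cKO libraries lay above both WT libraries for 1 member (*Ikzf1*) and below both for 3 (*Zbtb46*, *Mycl* and *Bcl6*), where 22.8% and 20.8% of all genes did so. The 95% intervals of the 9 fold changes ran from −0.61 at the lowest to 1.26 at the highest on the log2 scale, so changes within those bounds were not excluded. In bulk RNA, fewer cells of a type and less RNA per cell cannot be told apart. The part of cDC1s in the values of *Zbtb46*, *Mycl* and *Bcl6* was not tested.

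**Figure D1:**
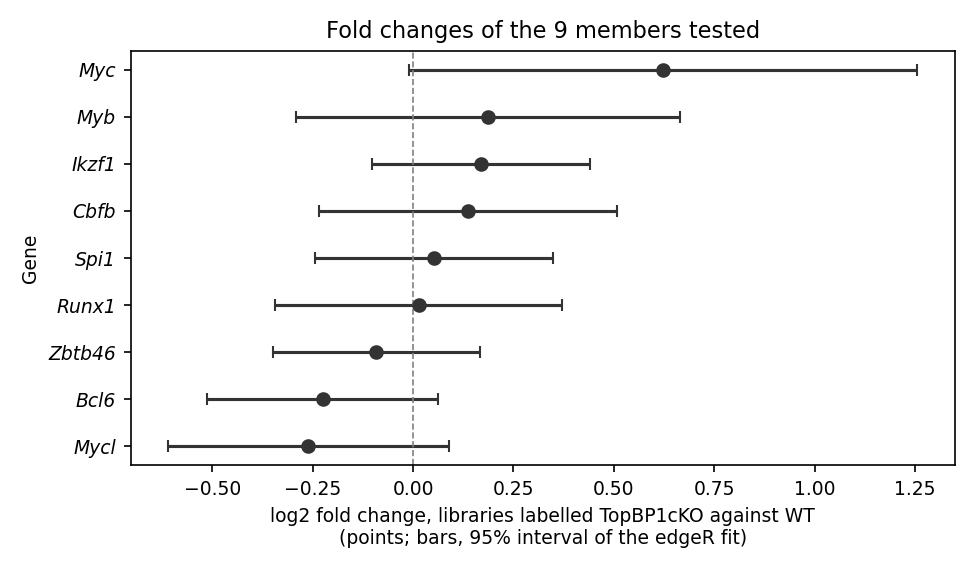
Log2 fold change (x axis) of the 9 members tested (y axis), libraries labelled TopBP1cKO against WT, n = 2 per group. Points are the edgeR estimates and bars their 95% intervals. Every interval includes 0, and that of *Myc*, from −0.01 to 1.26, is the widest.

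To compare levels between genes, CPM were divided by the length in kb of the most abundant transcript that matched the GENCODE transcript table. On this scale *Spi1* ranged from 123 to 143 CPM per kb and *Mycl* from 90.7 to 126 over the 4 libraries, so these neighbours overlapped. *Zbtb46* followed at 76.5 to 82.9 CPM per kb. A group of overlapping levels was formed by *Bcl6* (47.1 to 60.5), *Cbfb* (54.8 to 74.9) and *Ikzf1* (54.1 to 64.3 CPM per kb). A lower group with neighbouring overlap held *Runx1* (15.8 to 21.0), *Myc* (14.2 to 30.5) and *Myb* (9.62 to 14.7 CPM per kb). *Gfi1b*, at 0.197 to 0.378 CPM per kb, lay far under the rest. The length chosen mattered for some places in this order. The most abundant *Zbtb46* transcript has no GENCODE match, and with the longest GENCODE transcript of the gene its level was 37.2 to 40.3 CPM per kb, under *Ikzf1*. With the longest transcript *Mycl* was at 85.3 to 119 CPM per kb, just under *Spi1* without overlap.

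**Figure D2:**
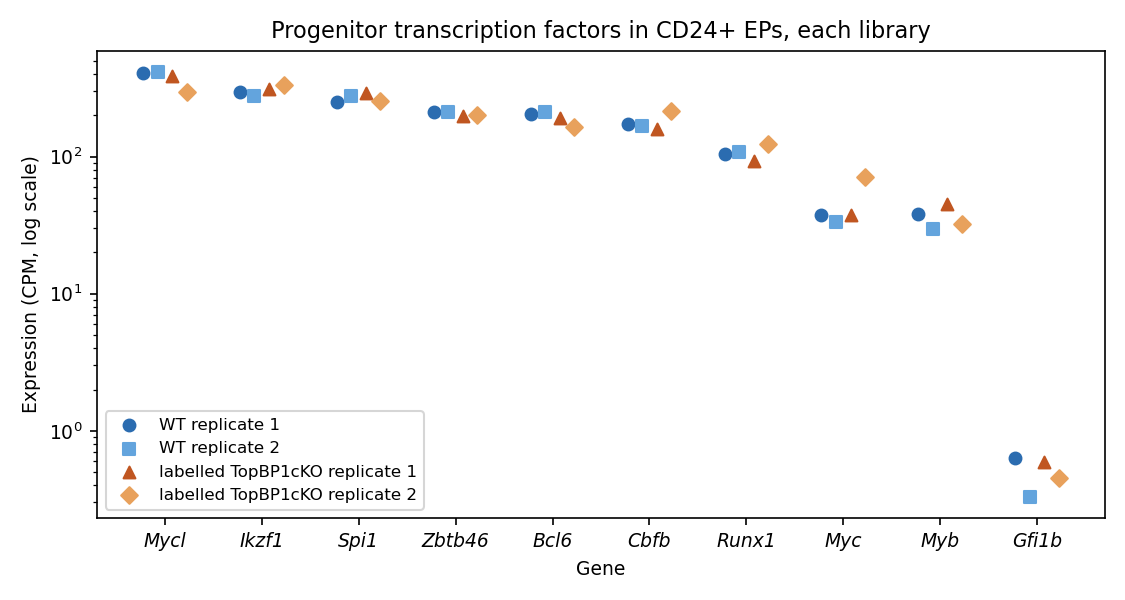
CPM (y axis, log scale) of each of the 10 members (x axis) in each of the 4 libraries; each point is 1 library, circles and squares WT, triangles and diamonds labelled TopBP1cKO. Library-to-library spread is small beside the gap between *Gfi1b*, under 1 CPM, and the other members, and CPM of different genes are not corrected for length here.

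*Spi1* encodes PU.1. Its level was 249 and 276 CPM in WT and 291 and 255 CPM in the labelled TopBP1cKO libraries (263 ± 19.1 against 273 ± 25.4, mean ± SD, n = 2). The groups overlapped, with the highest value in labelled TopBP1cKO replicate 1 and the lowest in WT replicate 1. Labelled TopBP1cKO over WT gave a log2 ratio of 0.05 ± 0.13 (SE, FDR = 0.919 by edgeR), with a 95% interval of −0.24 to 0.35, that is, between 0.845-fold and 1.27-fold. ETS and IRF factors that share or partner PU.1 sites were mixed: of 12 tested, 0 passed FDR < 0.05 and 4 had an unadjusted P below 0.05 (10.7% of all genes did), all higher, with a median log2 fold change of 0.27. That median was −0.02 without labelled TopBP1cKO replicate 2 and 0.09 without labelled TopBP1cKO replicate 1. *Spib*, the nearest PU.1 relative and a factor of pDCs and B cells, had 106 and 140 counts in WT and 194 and 258 in the labelled TopBP1cKO libraries (log2 fold change 0.81 ± 0.23, SE, FDR = 0.337 by edgeR). *Irf8*, the factor that cDC1s require, had 34554, 37998, 37415 and 29887 counts. The order, used for all sets of 4 values here, is WT replicates 1 and 2, then labelled TopBP1cKO replicates 1 and 2. The log2 fold change of *Irf8* was −0.18 (FDR = 0.749 by edgeR), and −0.02 without labelled TopBP1cKO replicate 2. *Irf4*, which acts in cDC2s, had 237, 285, 369 and 390 counts and did not pass (log2 fold change 0.47, FDR = 0.364). The extreme of this list was *Ets2*, with 20, 11, 37 and 56 counts (log2 fold change 1.50, FDR = 0.351).

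Of 12 genes that PU.1 is known to activate, 0 passed FDR < 0.05 in the quasi-likelihood test and 4 had an unadjusted P below 0.05 (10.7% of all genes did), all higher, while the median log2 fold change was 0.05. *Itgam*, which encodes CD11b, had 305, 253, 672 and 1201 counts (log2 fold change 1.67 ± 0.27, SE, FDR = 0.153 by edgeR), and *Btk*, a kinase of myeloid and B cells, was the lowest of the list at a log2 fold change of −0.27. The other 3 with an unadjusted P below 0.05 were *Cybb* (1422, 1528, 2322 and 2914 counts), *Csf3r* (174, 176, 323 and 282 counts) and *Csf1r*, the receptor gene of monocytes and macrophages (275, 342, 456 and 517 counts, log2 fold change 0.59), each higher in both labelled TopBP1cKO libraries without overlap. Without labelled TopBP1cKO replicate 2, *Itgam* (log2 fold change 1.20), *Cybb* (0.59) and *Csf3r* (0.82) passed FDR < 0.05 by edgeR, where 1.39% of all genes did. The DESeq2 Wald test and the edgeR likelihood ratio test called *Itgam* and *Cybb* at FDR < 0.05 with all 4 libraries, with 1.25% and 1.89% of genes called. Neutrophils express *Itgam*, *Cybb* and *Csf3r* too, and neutrophil markers were higher in the same libraries: all 10 markers had a log2 fold change above 0, 6 of them passed FDR < 0.05, and their summed level was 760 to 805 CPM in WT and 2228 to 2266 CPM in the labelled TopBP1cKO libraries, with no marker at 0. The 4 cDC2 markers also had log2 fold changes above 0 (median 0.72, 0 at FDR < 0.05), among them *Sirpa* at 1.01 (FDR = 0.182 by edgeR). The part of those cells in the values of *Irf4* and the PU.1 targets was not tested.

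*Zbtb46* encodes a zinc-finger repressor of the cDC lineage. Its level was 213 and 214 CPM in WT and 197 and 203 CPM in the labelled TopBP1cKO libraries. Both labelled TopBP1cKO libraries lay below both WT libraries, by little: the log2 fold change was −0.09 ± 0.11 (SE, n = 2 per group, FDR = 0.811 by edgeR), with a 95% interval of −0.35 to 0.17, and it stayed between −0.12 and −0.07 when any library was left out.

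*Ikzf1* encodes IKAROS, a zinc-finger factor that DCs and lymphocytes need. It was at 295 and 279 CPM in WT and 313 and 332 CPM in the labelled TopBP1cKO libraries, the only member that was higher in both of these without overlap. The log2 fold change was 0.17 ± 0.12 (SE, n = 2 per group, FDR = 0.646 by edgeR), with an interval of −0.10 to 0.44. Of its relatives, 3 of 4 could be tested and 0 passed FDR < 0.05. *Ikzf3* (AIOLOS), known from lymphocytes, had 58, 45, 98 and 111 counts (log2 fold change 0.94 ± 0.29, SE, FDR = 0.346 by edgeR). *Ikzf2* (HELIOS) had 125, 104, 125 and 129 counts with overlapping groups (log2 fold change 0.08), and *Ikzf5* was the lowest at −0.09. Of 6 B cell markers, 5 had a log2 fold change above 0 (median 0.42), with summed levels of 32.9, 28.2, 38.8 and 33.9 CPM. All 3 T and NK cell markers tested were above 0 (median 1.24), and that list summed to 4.66, 3.37, 11.3 and 6.01 CPM. The median of 4 pDC markers tested was −0.11. Of all these markers 0 passed FDR < 0.05 by edgeR. The part of such cells in *Ikzf3* and *Spib* was not tested.

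*Runx1* encodes the DNA-binding subunit of core-binding factor in progenitors. Its level was 104 and 109 CPM in WT, 92.5 CPM in labelled TopBP1cKO replicate 1 and 123 CPM in labelled TopBP1cKO replicate 2. The labelled TopBP1cKO libraries thus held the lowest and the highest value, and the fold change was 0.01 ± 0.15 on the log2 scale (SE, FDR = 0.981 by edgeR), with an interval of −0.34 to 0.37. *Cbfb*, its partner subunit, showed the same order at the top and the bottom: 173 and 168 CPM in WT, 159 CPM in labelled TopBP1cKO replicate 1 and 217 CPM in labelled TopBP1cKO replicate 2 (log2 fold change 0.14 ± 0.16, SE, FDR = 0.799 by edgeR, interval −0.23 to 0.51). The ratio of *Runx1* to *Cbfb* per kb was 0.298, 0.319, 0.288 and 0.280 in the 4 libraries, so it ran within a narrow range. *Runx2* and *Runx3*, the other DNA-binding subunits, had log2 fold changes of 0.39 (FDR = 0.391) and 0.11 (FDR = 0.780). Both were higher in each labelled TopBP1cKO library than in either WT library, for *Runx3* by little (94.5, 108, 108 and 111 CPM). Of the 4 genes tested in this list, 0 passed FDR < 0.05, and *Cbfa2t3*, a corepressor gene, was the lowest at −0.16.

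*Runx1* has a distal and a proximal promoter, and the proteins made from them differ at the N terminus. The first 30 coding bases of the 2 kinds of transcript are shown because they tell which start was counted; capitals mark the start codon.
Runx1 distal coding start: ATGgcttcagacagcatttttgagtcattt
Runx1 proximal coding start: ATGcgtatccccgtagatgccagcacgagc
Transcripts with the distal start held 91.5%, 90.4%, 87.2% and 88.0% of *Runx1* counts in the 4 libraries. Their exact (Clopper-Pearson) 95% intervals, which cover counting error only, were 89.9 to 92.8%, 88.9 to 91.8%, 85.3 to 88.9% and 86.4 to 89.4%. The share was lower in both labelled TopBP1cKO libraries than in either WT library, while the intervals of WT replicate 2 and labelled TopBP1cKO replicate 2 overlapped. The shares themselves were not tested, and with 2 libraries per group an exact permutation test could not go below P = 0.333. With each transcript as its own feature, the proximal transcript of *Runx1* had a log2 fold change of 0.46 ± 0.32 (SE, unadjusted P = 0.228 and FDR = 1.00 by edgeR), and the more abundant distal transcript −0.15 ± 0.16. The less abundant distal transcript went the other way, with 259, 275, 288 and 440 counts and a log2 fold change of 0.38 ± 0.29 (SE). The lower distal share thus lay in the more abundant distal transcript, which held 74.0%, 73.7%, 66.7% and 64.8% of *Runx1* counts, and not in both. Together the distal transcripts had 1352, 1486, 1228 and 1671 counts and the proximal transcript 126, 158, 181 and 228. A further proximal transcript was listed at 0 in all 4 libraries.

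The RefSeq windows at these starts are given for the members whose promoters are compared (GRCm38.p6, which is not the build named in the submitters' processing notes; 250 bases before the start and 50 after it, 5′ to 3′ on the gene's strand). Capitals mark, in the *Runx1* windows, the RUNX motif (TGTGGT or its reverse ACCACA), in the *Cbfb* window the ETS motif GAGGAA, and in the *Mycl* window the E2F motif GGCGGGA.
Runx1 distal promoter, chr16:92826025-92826324, minus strand: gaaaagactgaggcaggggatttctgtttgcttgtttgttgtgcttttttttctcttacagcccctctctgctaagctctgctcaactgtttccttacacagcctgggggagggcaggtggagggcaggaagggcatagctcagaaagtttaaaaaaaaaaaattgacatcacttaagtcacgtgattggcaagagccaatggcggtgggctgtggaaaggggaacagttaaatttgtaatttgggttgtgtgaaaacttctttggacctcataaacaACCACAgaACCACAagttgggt
Runx1 proximal promoter, chr16:92697280-92697579, minus strand: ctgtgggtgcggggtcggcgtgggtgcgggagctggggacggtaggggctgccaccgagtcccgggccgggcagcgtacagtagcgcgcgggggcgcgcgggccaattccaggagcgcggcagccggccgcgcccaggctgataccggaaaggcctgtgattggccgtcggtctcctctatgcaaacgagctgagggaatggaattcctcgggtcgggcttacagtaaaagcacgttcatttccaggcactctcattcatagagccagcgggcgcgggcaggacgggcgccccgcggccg
Cbfb promoter, chr8:105170424-105170723, plus strand: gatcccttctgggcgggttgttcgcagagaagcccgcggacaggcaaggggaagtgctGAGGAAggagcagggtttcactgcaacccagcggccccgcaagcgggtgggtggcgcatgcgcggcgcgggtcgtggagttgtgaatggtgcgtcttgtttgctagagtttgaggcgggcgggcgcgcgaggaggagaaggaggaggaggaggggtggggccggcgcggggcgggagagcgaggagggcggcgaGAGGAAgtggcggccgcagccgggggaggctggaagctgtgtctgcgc
Mycl promoter, chr4:122995681-122995980, plus strand: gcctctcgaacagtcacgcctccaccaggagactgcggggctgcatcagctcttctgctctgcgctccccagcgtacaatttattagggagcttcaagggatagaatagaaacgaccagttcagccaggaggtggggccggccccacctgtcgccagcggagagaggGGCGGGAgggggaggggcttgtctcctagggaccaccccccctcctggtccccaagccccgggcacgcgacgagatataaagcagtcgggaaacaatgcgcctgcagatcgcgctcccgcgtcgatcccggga
The distal *Runx1* window holds 2 RUNX matches, which begin at bases 29 and 37 counted from the start of transcription, and the proximal window holds 0. *Cbfb* holds 2 ETS matches, and *Mycl* 1 E2F match. A RefSeq window was matched for 8 of the 10 members, 11 windows in all, and *Spi1* and *Myc* were not matched. Both strands of 5 motifs were searched in 32851 windows of 300 bases, and the motifs were chosen after the windows had been read. RUNX letters were found in 1 of the 11 windows and in 16.8% of all windows. ETS letters were in 3 of 11 (*Runx1* proximal, *Cbfb* and *Bcl6*) against 28.3%, and the E-box CACGTG in 2 of 11 (*Runx1* distal and *Bcl6*) against 7.15%. E2F letters were in 5 of 11 (*Cbfb*, *Gfi1b*, *Ikzf1*, *Myb* and *Mycl*) against 11.3%, and the MYB motif AACGG was in 0 of 11 against 17.4%. These are matches of letters only.

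*Gfi1b*, a repressor that erythroid and megakaryocytic progenitors need, was near its counting limit. It had 9, 5, 9 and 7 counts and was too low to be tested. The ratio of labelled TopBP1cKO to WT, scaled for library size, was 1.09 with an exact binomial 95% interval of 0.498 to 2.41, from 16 and 14 counts, and ratios within this interval, which covers counting error only, were not excluded. *Gata1*, its frequent partner in erythroid cells, was as low (4, 1, 8 and 9 counts). *Gfi1*, its paralogue in granulocyte progenitors, had 45, 43, 69 and 19 counts, so that labelled TopBP1cKO replicates 1 and 2 lay on opposite sides of both WT libraries (log2 fold change −0.07 ± 0.55, SE, FDR = 0.978 by edgeR, and 0.58 without replicate 2). Early granulocyte markers split the same way, with a summed level of 801 and 560 CPM in WT, 1162 CPM in labelled TopBP1cKO replicate 1 and 268 CPM in labelled TopBP1cKO replicate 2. Of *Gfi1* and the 4 genes for corepressors that GFI1B recruits, 0 passed FDR < 0.05, and their log2 fold changes ran from −0.12 for *Kdm1a* to 0.28 for *Hdac2*.

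*Myb* encodes a factor of immature, dividing progenitors. It was at 38.4 and 29.6 CPM in WT and at 45.2 and 32.1 CPM in the labelled TopBP1cKO libraries, and the groups overlapped (log2 fold change 0.19 ± 0.21, SE, n = 2, FDR = 0.783 by edgeR, interval −0.29 to 0.66). Its relative *Mybl2*, which cells use in S phase and G2, had 84, 91, 166 and 458 counts (log2 fold change 1.76 ± 0.43, SE, FDR = 0.307 by edgeR). *Mybl1* had 17, 22, 22 and 101 counts, so that its log2 fold change of 1.58 (FDR = 0.461) rested on labelled TopBP1cKO replicate 2. Without that library the log2 fold change was 0.11 for *Mybl1* and 0.86 for *Mybl2*. Of the 4 genes of this family and its coactivators, 0 passed FDR < 0.05, and their median log2 fold change of 0.78 became −0.08 without that library and 1.25 without labelled TopBP1cKO replicate 1.

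*Myc* and *Mycl* encode related basic helix-loop-helix factors, MYC of dividing progenitors and L-MYC of cDCs. *Myc* was at 37.6 and 33.1 CPM in WT, at 37.5 CPM in labelled TopBP1cKO replicate 1 and at 71.3 CPM in labelled TopBP1cKO replicate 2. The first 3 libraries were alike, and the last was 2.02-fold the WT mean. The log2 fold change was 0.62 ± 0.27 (SE, n = 2 per group, FDR = 0.474 by edgeR), with an interval of −0.01 to 1.26. *Mycl* was at 407 and 415 CPM in WT, at 387 CPM in labelled TopBP1cKO replicate 1 and at 299 CPM in labelled TopBP1cKO replicate 2. Both labelled TopBP1cKO libraries were below both WT libraries, and most of the gap was in replicate 2 (log2 fold change −0.26 ± 0.15, SE, FDR = 0.587 by edgeR, interval −0.61 to 0.09). Per kb, *Mycl* exceeded *Myc* 7.68-fold and 8.90-fold in WT, 7.33-fold in labelled TopBP1cKO replicate 1 and 2.97-fold in labelled TopBP1cKO replicate 2. This ratio was chosen after the counts had been seen and was not tested.

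*Myc*, *Mycl*, *Bcl6* and *Cbfb* depended on which labelled TopBP1cKO library was used. Without labelled TopBP1cKO replicate 1, so that replicate 2 alone stood against WT, these 4 members passed the edgeR test, with log2 fold changes of 1.01 (FDR = 1.29e-05), −0.46 (FDR = 0.00506), −0.34 (FDR = 0.0368) and 0.34 (FDR = 0.0289). That fit assumes that the lone library varies like the WT libraries do, and it called 21.2% of all genes. Without labelled TopBP1cKO replicate 2 the same 4 log2 fold changes were 0.08, −0.09, −0.13 and −0.11, 0 members were called and 1.39% of all genes were. Of the 9 members tested, 4 had their highest value in labelled TopBP1cKO replicate 2 and 2 their lowest, where 34.8% and 35.0% of all genes did.

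**Figure D3:**
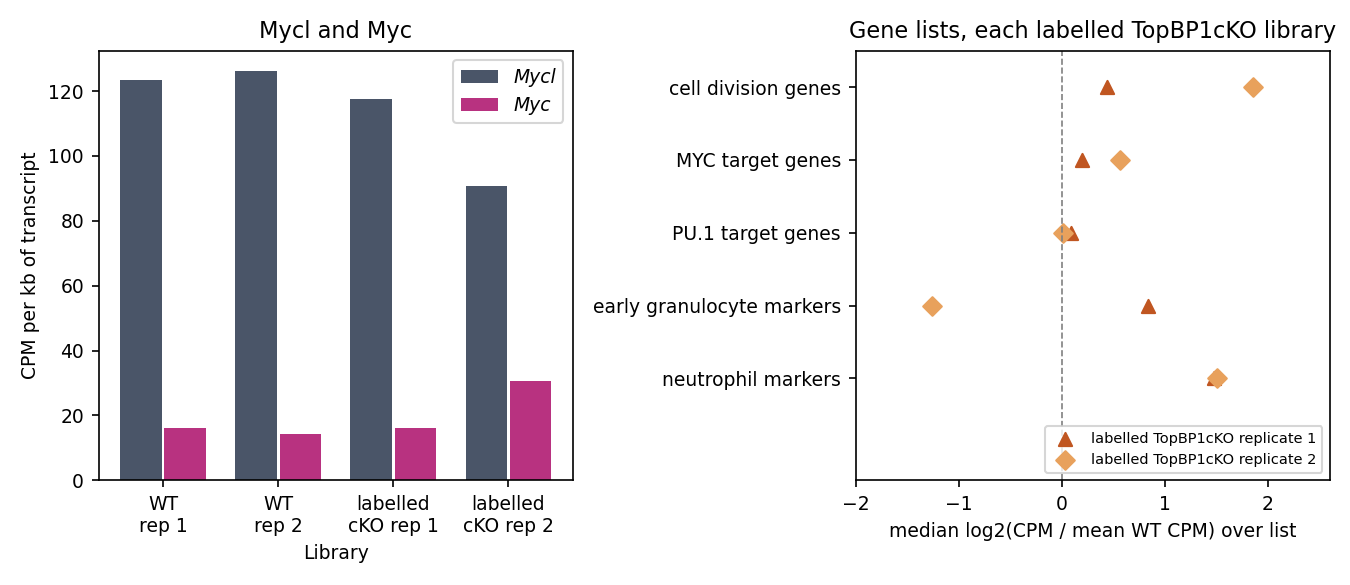
Left, CPM per kb (y axis) of *Mycl* and *Myc* in each library (x axis), 1 bar per library with no error bar. Right, the median over each gene list (y axis) of log2 CPM over the WT mean (x axis) for each labelled TopBP1cKO library; *Myc* is higher and *Mycl* lower in labelled TopBP1cKO replicate 2, where the cell division genes reach a median of 1.85 against 0.44 in replicate 1, and the neutrophil medians of 1.48 and 1.50 nearly coincide.

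The partners of MYC did not pass either with all 4 libraries. *Max*, with which MYC and L-MYC both pair, had 2253, 2569, 2017 and 2023 counts, lower in both labelled TopBP1cKO libraries without overlap (log2 fold change −0.32 ± 0.11, SE, FDR = 0.380 by edgeR). *Mlxip*, a glucose-sensing member of the network that pairs with MLX, was the lowest of the list, with 2031, 2172, 1577 and 1625 counts (log2 fold change −0.46 ± 0.11, SE, FDR = 0.307 by edgeR, and −0.48 with FDR = 0.0487 without labelled TopBP1cKO replicate 2). Of 11 network genes 9 were tested and 0 passed FDR < 0.05. *Mxd3*, a repressor of dividing cells, was the highest at 0.50 and was at −0.30 without labelled TopBP1cKO replicate 2, and *Mycn* had 7, 8, 1 and 3 counts and was not tested. Genes that MYC is known to activate had a median log2 fold change of 0.35 over 16 genes: 14 lay above 0, 7 had an unadjusted P below 0.05 (10.7% of all genes did) and 0 passed FDR < 0.05. *Srm*, the spermidine synthase gene, led with 168, 182, 266 and 420 counts (log2 fold change 0.90 ± 0.24, SE, FDR = 0.307 by edgeR), and the nucleolar gene *Fbl* was the lowest at −0.17. The median was 0.19 without labelled TopBP1cKO replicate 2 and 0.56 without replicate 1.

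Of 20 cell division genes, 0 passed FDR < 0.05 by the quasi-likelihood test with all 4 libraries. All 20 had an unadjusted P below 0.05 by edgeR, where 10.7% of all genes did. All lay higher in both labelled TopBP1cKO libraries without overlap, where 22.8% did. The list was chosen with earlier results of these data known, and its genes were measured in the same 4 libraries. These counts are therefore not independent support. The summed level of the 20 genes was 709 and 706 CPM in WT, 948 CPM in labelled TopBP1cKO replicate 1 and 2463 CPM in replicate 2. The median log2 fold change was 1.28, from *Ccnb2* (0.79) to *Mcm2* (1.68), a DNA helicase subunit. Without labelled TopBP1cKO replicate 2 the median was 0.43, from *Foxm1* (0.21) to *Bub1* (0.86). The part of the cell division genes in the levels of *Myc*, *Mycl*, *Mybl1* and *Mybl2* was not tested.

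*Bcl6*, a repressor of the zinc-finger family, was at 206 and 213 CPM in WT and at 193 and 166 CPM in the labelled TopBP1cKO libraries. Both of the latter lay below WT (log2 fold change −0.22 ± 0.12, SE, n = 2 per group, FDR = 0.569 by edgeR, interval −0.51 to 0.06). *Prdm1*, the gene for BLIMP1, which opposes BCL6 in lymphocytes, had 34, 32, 38 and 30 counts (log2 fold change −0.03), and the corepressor gene *Bcor* had 1025, 1017, 1000 and 1135 counts (−0.01). *Bcl6b*, its closest relative, was at 0 in all 4 libraries, where a count of 0 allows up to 3 counts per library. None of the 4 genes tested in this list passed FDR < 0.05.

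Among 24 other progenitor factors, 21 were tested and 0 passed FDR < 0.05, with a median log2 fold change of −0.07. *Gata2*, a factor of stem cells and mast cells, was the highest, with 45, 44, 101 and 68 counts (log2 fold change 0.85 ± 0.32, SE, FDR = 0.407 by edgeR). Of 5 mast cell and basophil markers, 0 passed FDR < 0.05 with all 4 libraries and all had a log2 fold change above 0. Of the 5, 4 were higher in both labelled TopBP1cKO libraries without overlap, where 22.8% of all genes tested were. Their median log2 fold change was 1.32, and it was 1.83 without labelled TopBP1cKO replicate 2 and 0.51 without replicate 1. The summed level was 21.1 to 21.8 CPM in WT, 71.9 CPM in labelled TopBP1cKO replicate 1 and 36.4 CPM in replicate 2, with no marker at 0. Their part in *Gata2* was not tested. *Id3*, an inhibitor of E proteins, was the lowest, with 96, 93, 73 and 25 counts (log2 fold change −1.01 ± 0.46, SE, FDR = 0.492 by edgeR, and −0.44 without labelled TopBP1cKO replicate 2). Over the 110 genes tested in all the lists of families, targets and cell division, 0 passed FDR < 0.05 by edgeR and 43 had an unadjusted P below 0.05, where 10.7% of all genes did. Without the cell division genes these were 23 of 90. limma-voom called 0 of the 110, the DESeq2 Wald test 10 and the edgeR likelihood ratio test 14.

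The counts of single transcripts were less steady than those of the genes. *Ikzf1* is listed with 88 transcripts, of which 26 had a count in any library and 4 in every library. Of the 26, 1 had 892, 0, 1640 and 0 counts, while the gene as a whole stayed within 4170 to 5136. *Myc* has 4 transcripts and none had a count in every library. Its most abundant transcript in WT replicate 1 had 392, 0, 301 and 483 counts and another 0, 404, 0 and 502, so that the WT libraries, which differ by little in the sum, were counted on different transcripts. For *Spi1* the main transcript held 92.7%, 91.6%, 87.4% and 89.9% of counts. With each transcript as its own feature, 0 of 29581 passed FDR < 0.05 and 2018 had an unadjusted P below 0.05.

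**Figure D4:**
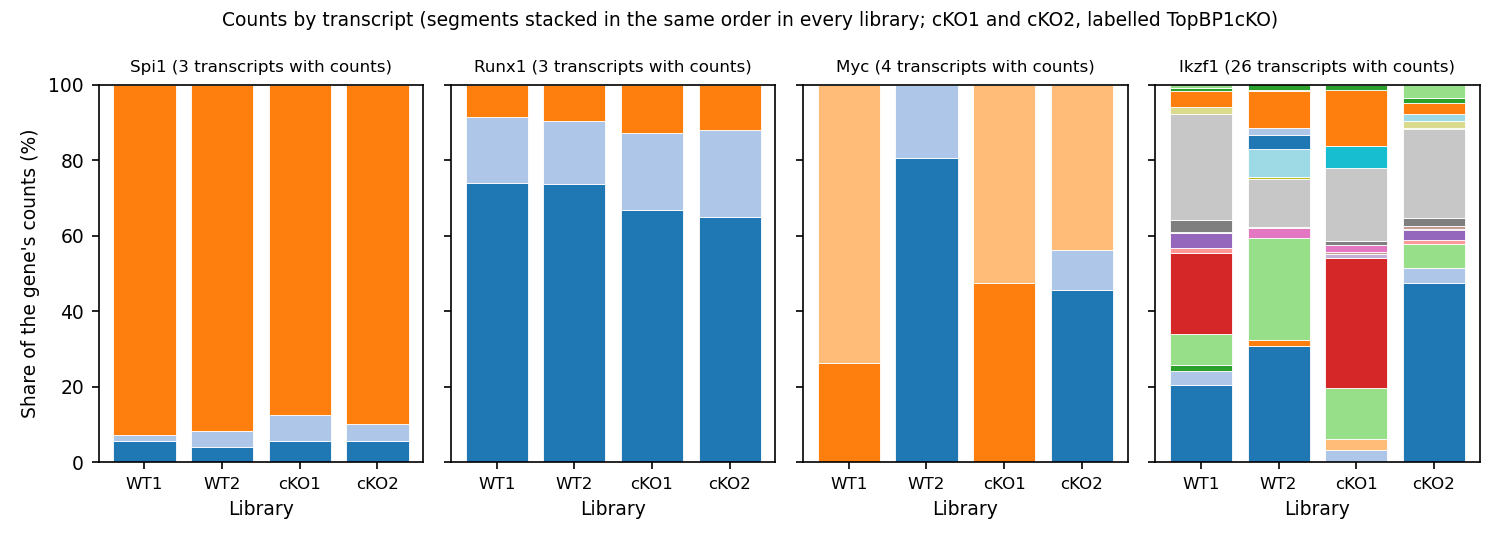
Share of a gene's counts (%, y axis) on each transcript, stacked in the same order in each library (x axis), for *Spi1*, *Runx1*, *Myc* and *Ikzf1*; each colour is a transcript, and colours recur in the *Ikzf1* panel. The main segments of *Spi1* and *Runx1* recur in all 4 libraries, whereas those of *Myc* and *Ikzf1* come and go between libraries of the same genotype.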

How the data were processed

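Bulk RNA-seq of CD24+ splenic EPs gave 4 libraries, grouped by their titles. The authors deposited raw whole-number counts per transcript, without normalization. The submitters' processing notes name fastp, STAR, Salmon and GATK and the build GRCm39, with no roles, so the deposited counts may be rounded estimates; the rule for reads shared by transcripts is not given in the sources used here, and gene sums depend on it less than single transcripts.

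Counts were summed per gene symbol. Genes passing filterByExpr were scaled by TMM and tested by the quasi-likelihood test of edgeR 4.0.16 (glmQLFit, glmQLFTest; R 4.3.3) with Benjamini–Hochberg adjustment over 12393 genes, intervals are 95%. SEs are the fold change over the square root of F. The common dispersion was 0.0230 and the biological coefficient of variation 15.2%. The range of total counts per library is given above. The edgeR intervals include the spread between libraries, and the exact binomial intervals cover counting error only. No 2 libraries were duplicates. Alternatives used DESeq2 1.42.0, limma 3.58.1, upper quartile and DESeq2 scaling, no filter, at least 10 counts in every library, a replicate block, single transcripts and leaving out each library. The edgeR step was tested on simulated data. Lengths and the *Runx1* coding starts came from the GENCODE vM21 transcript table, promoters from RefSeq.

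The members and lists were chosen with earlier results of these data known. Genes named were the members, *Topbp1*, list genes at FDR < 0.05, a fixed set of close relatives, and the highest and lowest of each list, except that some list genes are not reported here; *Itgam*, *Cybb*, *Csf3r* and single transcripts are named besides where a result turned on them, and the *Runx1* split by start and the ratios between members were chosen after the values were seen.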

Additional observations from a re-analysis of the deposited data

How the results depend on the processing

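The count of members called was 0 under every alternative except leaving out labelled TopBP1cKO replicate 1, and leaving out each library in turn gave 0 to 4 members. Over all genes, 13 were called, against 137 by the DESeq2 Wald test, 234 by the edgeR likelihood ratio test, 504 with the replicate block, 1 to 2628 with a library left out and 0 with single transcripts. Of the 110 list genes, 0 were called, against 10, 14, 28 with the replicate block, and 0 to 58 with a library left out. Of 108 member fold changes recomputed under an alternative, 97 kept their direction and side of the threshold, 4 passed it and 7 reversed, all with a library left out: *Spi1* (−0.046 to 0.14), *Runx1* (−0.21 to 0.20), *Myb* (−0.080 to 0.41) and *Cbfb* (−0.11 to 0.34). The cause was not tested. *Myc* ran from 0.08 to 1.01 there. Scaling moved the median of all genes by no more than 0.02. Whether libraries with the same replicate number are paired is not stated. Deviations of same-numbered libraries correlated at −0.0147 across genes, and a single correlation cannot settle this. With the replicate block no member was called. The lowest FDR of a member there was that of *Myc* (log2 fold change 0.56, FDR = 0.0805 by edgeR). With 2 libraries per group, small changes of members were not detectable.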
